A study of Mus musculus with 4 samples.

Results

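The genes described here are 41 genes of mitosis, the spindle and the kinetochore, chosen by a list of symbols: cyclins and kinases of mitotic entry, kinesin motors, centromere and checkpoint genes. All 41 were found by Ensembl identifier among the 55487 genes of the deposited table, and all 41 passed the filter on low counts. Bulk tumour tissue of a c-Myc driven, spontaneous hepatocellular carcinoma (HCC) model, in mice named Alb-cre H11-myc, was profiled by mRNA-seq with 1 library from each of 4 mice. The knockout group is 2 mice with Tfrc, the gene of transferrin receptor 1, conditionally deleted in the liver, and the wild type group is 2 mice with tumours of the same c-Myc model. Alb-cre expresses Cre recombinase from albumin regulatory sequence, which is active in the hepatocyte lineage and not in blood or stromal cells. The age of the mice, the deleted exons and whether the wild type mice carry the Cre were not stated in the labels or design text. The stated question of the series is how Tfrc shapes the tumour and its surroundings, and the comparison below asks whether transcripts of the mitotic machinery differed between the groups.

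Mitosis is driven by cyclin-dependent kinase 1 with cyclins A and B, which are made late in the cell cycle and destroyed when the anaphase-promoting complex is switched on. Kinetochores built on centromeric chromatin attach chromosomes to spindle microtubules, and the spindle checkpoint holds anaphase back until the attachments are made. Most of these genes are transcribed in G2 and M phase and repressed in resting cells, in part through promoter elements bound by the MuvB-based DREAM and B-MYB complexes and by NF-Y, so in adult liver, where few hepatocytes divide, their transcripts are known to be scarce and in liver tumours they are used as a measure of proliferation.

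The promoters of the genes share such elements, and 6 of them are shown because they span the patterns described below. RefSeq promoter windows of 300 bases (250 before and 50 after the annotated start, build GRCm38.p6, the assembly also called mm10) were at hand for 34 of the 41 genes, in 37 windows. Aurkb, Ccna2, Cdc25c, Foxm1, Incenp, Kif20a and Tpx2 had no window. Ccnb2, Cdk1, Cdc20 and Plk1 stand for mitotic entry and exit. Ect2 had the widest gap between the wild type tumours, and Nuf2 had the smallest p of the 41 genes. Each sequence runs 5′ to 3′ on the strand of the gene, and capitals mark the letters TTTGAA of the cell cycle genes homology region (CHR) and CCAAT of the NF-Y box, on either strand.
Ccnb2, chr9:70421505-70421804, minus strand: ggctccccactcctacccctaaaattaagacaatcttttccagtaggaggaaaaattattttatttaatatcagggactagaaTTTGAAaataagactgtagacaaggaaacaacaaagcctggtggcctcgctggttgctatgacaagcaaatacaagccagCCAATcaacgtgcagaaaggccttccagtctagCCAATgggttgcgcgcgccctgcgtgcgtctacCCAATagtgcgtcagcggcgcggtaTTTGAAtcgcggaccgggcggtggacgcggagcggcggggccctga
Cdk1, chr10:69352863-69353162, minus strand: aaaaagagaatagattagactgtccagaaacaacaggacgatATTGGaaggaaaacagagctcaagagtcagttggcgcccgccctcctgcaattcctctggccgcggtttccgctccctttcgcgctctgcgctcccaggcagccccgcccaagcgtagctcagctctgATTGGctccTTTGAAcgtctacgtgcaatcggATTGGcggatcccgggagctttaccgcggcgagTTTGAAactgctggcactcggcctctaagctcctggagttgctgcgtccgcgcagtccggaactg
Cdc20, chr4:118437294-118437593, minus strand: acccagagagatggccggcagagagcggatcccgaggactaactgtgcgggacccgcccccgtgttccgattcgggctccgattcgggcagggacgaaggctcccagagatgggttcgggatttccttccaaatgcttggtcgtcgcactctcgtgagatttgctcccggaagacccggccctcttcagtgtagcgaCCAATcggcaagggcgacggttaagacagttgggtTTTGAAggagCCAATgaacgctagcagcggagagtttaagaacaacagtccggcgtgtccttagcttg
Plk1, chr7:122159185-122159484, plus strand: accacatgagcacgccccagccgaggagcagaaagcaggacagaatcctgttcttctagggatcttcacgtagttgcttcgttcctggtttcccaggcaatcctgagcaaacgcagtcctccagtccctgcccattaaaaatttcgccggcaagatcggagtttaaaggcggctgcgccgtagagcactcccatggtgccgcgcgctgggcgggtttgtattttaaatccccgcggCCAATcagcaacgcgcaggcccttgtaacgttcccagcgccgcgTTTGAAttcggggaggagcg
Ect2, chr3:27153805-27154104, minus strand: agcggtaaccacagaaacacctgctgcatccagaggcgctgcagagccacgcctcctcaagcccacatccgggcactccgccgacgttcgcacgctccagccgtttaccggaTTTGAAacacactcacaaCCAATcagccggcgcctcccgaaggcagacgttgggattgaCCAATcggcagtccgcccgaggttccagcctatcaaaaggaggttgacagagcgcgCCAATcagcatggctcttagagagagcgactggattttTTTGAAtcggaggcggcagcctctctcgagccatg
Nuf2, chr1:169531415-169531714, minus strand: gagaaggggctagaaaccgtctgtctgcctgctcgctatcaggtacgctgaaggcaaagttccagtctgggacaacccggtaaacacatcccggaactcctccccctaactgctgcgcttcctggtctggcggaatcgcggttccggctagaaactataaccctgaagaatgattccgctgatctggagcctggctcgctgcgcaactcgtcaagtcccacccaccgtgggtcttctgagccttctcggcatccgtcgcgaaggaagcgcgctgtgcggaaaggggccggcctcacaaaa
The CHR letters TTTGAA or their reverse complement were found in the windows of 25 of the 34 genes (73.5%), and in 20.2% of the 27025 genes with a window. CCAAT on either strand was found in 26 of the 34 genes (76.5%), against 41.1% of all genes with a window. Windows with both motifs belonged to 22 of the 34 genes (64.7%), against 7.97% of all genes. Windows with 2 or more CCAAT boxes belonged to 19 genes (55.9%), against 13.3% of all. A CHR and a CCAAT match can share end letters, and they did so in the window of Cdca8 alone among these genes. Ccnb2 had CCAAT beginning 87, 54 and 21 bases before the start at even spacing, with CHR letters 167 bases before the start and at base 5 of the transcript. In Cdc20 a CHR began 18 bases before the start, between CCAAT boxes that began 53 and 8 bases before it. Birc5, Mad2l1, Nuf2, Nusap1 and Pttg1 had neither set of letters in this window. The windows of Cdca8, Kif2c, Kif4 and Pttg1, and a window of Bub3, lay wholly inside the GENCODE span of the gene. Their letters therefore need not describe the outermost promoter. A match is a description of letters, and factor binding was not measured.

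**Figure D1:**
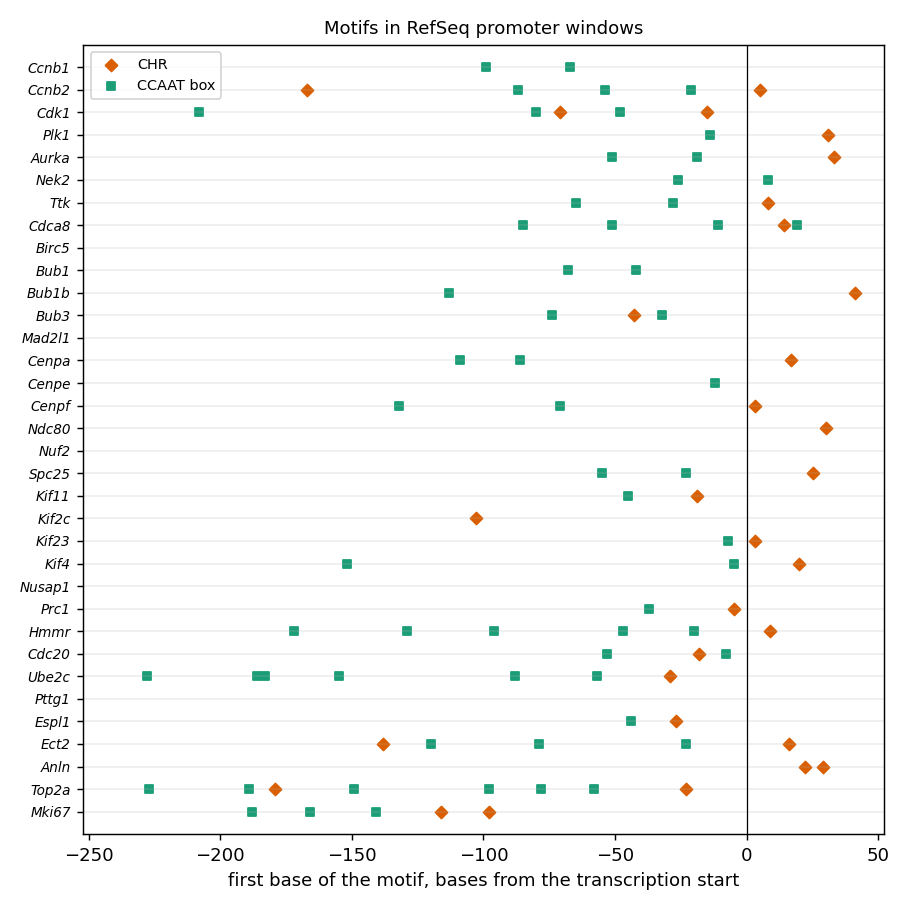
Positions of the CHR (TTTGAA, diamonds) and CCAAT (squares) in 1 promoter window of each of 34 mitotic genes, in bases from the annotated transcription start (vertical line); each row is a gene. The windows of 22 genes hold both motifs, and those of 5 genes hold neither.

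Total counts were 15918349 and 16421439 in knockout replicates 1 and 2, against 16414883 and 17052943 in wild type replicates 1 and 2. Levels below are CPM, counts scaled to a common library size with TMM factors. Tfrc itself had 334 and 205 CPM in the knockout and 460 and 234 CPM in the wild type libraries, so the groups overlapped. Reads over all exons cannot check the labels of a conditional deletion in mixed tissue, and directions below are those of the libraries as labelled. Of 15 hepatocyte markers, 15 were detected in all libraries, with a summed level of 51120 and 44448 CPM in knockout replicates 1 and 2, against 23482 and 69901 CPM in wild type replicates 1 and 2. Wild type replicate 2 stood apart on the first principal component of all tested genes, at 86.6 against -37 and -38.5 for the knockout libraries and -11.2 for wild type replicate 1. In bulk tissue, fewer dividing cells and less of these transcripts per dividing cell cannot be told apart.

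The mitotic genes did not separate the knockout tumours from the wild type tumours. Their summed level was 2412 and 2549 CPM in knockout replicates 1 and 2, against 2944 and 2148 CPM in wild type replicates 1 and 2. Both knockout tumours therefore lay between the wild type tumours, with wild type replicate 1 highest and wild type replicate 2 lowest. Of the 41 genes, 0 passed an adjusted p of 0.05 in edgeR's quasi-likelihood test over 16310 genes, and 0 had an unadjusted p under 0.05. Over all tested genes 0% passed the adjusted threshold and 8.3% the unadjusted one, 3.95% higher and 4.35% lower. DESeq2 called 0 of the 41 genes, against 0.907% of all genes, and limma-voom 0, against 0.00613%. Log2 fold changes ran from -0.74 to 0.67, with 24 negative and 17 positive and a median of -0.05, against 49.6% negative and a median of 0.01 over all tested genes. The 95% interval of every one of the 41 genes held 0. For 20 of them it lay inside a 2-fold change either way, while 13 reached past 2-fold lower and 10 past 2-fold higher. Over the 41 genes the intervals reached a median of 0.78 on the log2 scale to either side of the estimate. Moderate differences were therefore not detectable here, also in the 20 genes inside 2-fold.

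In 11 of the 41 genes (26.8%) both knockout libraries lay below both wild type libraries, against 20.1% of all tested genes, and in 4 (9.76%) both lay above, against 21.9%. The 11 lower ones were Aurka, Nek2, Ttk, Cdca8, Cenpa, Nuf2, Kif2c, Kif4, Tpx2, Nusap1 and Cdc20, and the 4 higher ones were Aurkb, Incenp, Birc5 and Espl1. When library totals replaced TMM the counts were 7 and 3, against 21.4% and 18% of all tested genes, with Cdca8, Kif4, Tpx2, Nusap1, Cdc20 and Incenp overlapping and Spc25 added to the lower ones.

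**Figure D2:**
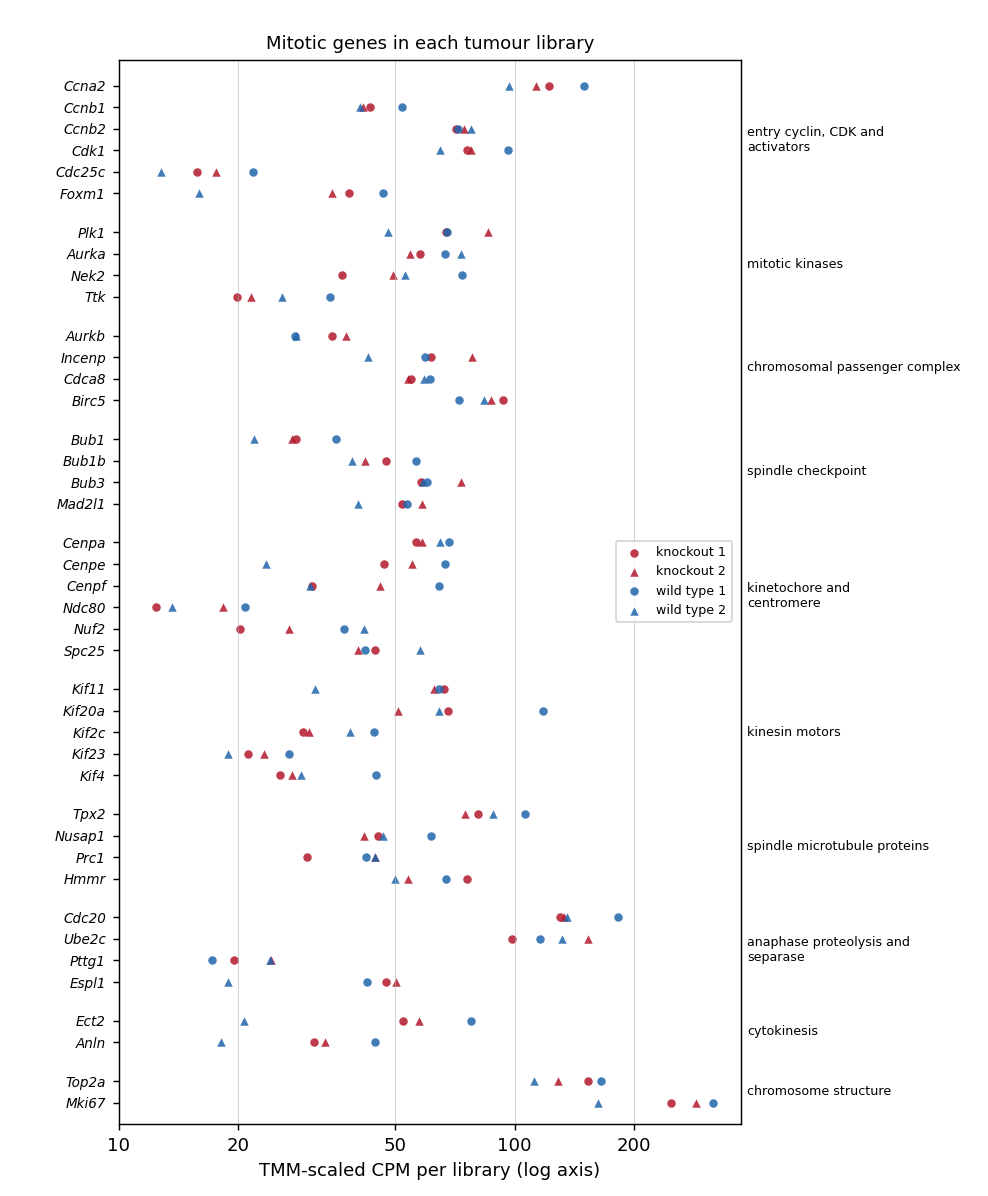
TMM-scaled CPM (log axis) of the 41 mitotic genes in each of the 4 libraries, grouped by role; red marks knockout and blue wild type, circles replicate 1 and triangles replicate 2. For 25 of the 41 genes (61%) wild type replicate 1 was the highest library, against 23.2% of all tested genes. For 20 (48.8%) wild type replicate 2 was the lowest, against 34.6% of all tested genes.

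Levels of other cell types' markers, whose cells can also divide, are given here because several lay lower in the knockout libraries. Of 88 markers tested in 10 lists, edgeR called 0 at an adjusted p of 0.05, against 0% of all tested genes. An unadjusted edgeR p under 0.05 was reached by 26, against 8.3% of all tested genes. DESeq2 called 11, against 0.907% of all tested genes. Negative log2 fold changes below are to be read against 49.6% of all tested genes. Leukocyte markers summed to 236 and 157 CPM in knockout replicates 1 and 2, against 436 and 425 CPM in wild type replicates 1 and 2, with 7 of 8 negative. Macrophage markers summed to 394 and 262 CPM in the knockout and 705 and 1051 CPM in the wild type, with 11 of 11 negative. Erythroid markers summed to 385 and 287 CPM in the knockout and 1045 and 2404 CPM in the wild type, with 7 of 8 tested negative. In all 3 lists both knockout sums lay below both wild type sums, as in the neutrophil, endothelial, and stellate and fibroblast lists that follow. Rhag, a red cell membrane protein, was at 0 counts in all libraries. Neutrophil markers summed to 12.9 and 13.9 CPM in the knockout and 24.0 and 66.1 CPM in the wild type, with 5 of 5 tested negative and Ly6g at 0 in all libraries. Endothelial markers summed to 123 and 100.4 CPM in the knockout and 165 and 203 CPM in the wild type, with 8 of 10 negative. Stellate and fibroblast markers summed to 656 and 1217 CPM in the knockout and 1459 and 1296 CPM in the wild type, with 8 of 11 negative. The sums of the T and NK cell list and of the B and plasma cell list overlapped between the groups. T and NK cell markers summed to 24.4 and 18.7 CPM in the knockout and 28.8 and 12.8 CPM in the wild type, with 3 of 10 tested negative. B and plasma cell markers summed to 4.87 and 7.0 CPM in the knockout and 5.28 and 3.57 CPM in the wild type, with 1 of 4 tested negative. Cholangiocyte markers summed to 1097 and 1155 CPM in the knockout, above 434 and 994 CPM in the wild type, with 3 of 6 tested negative. The part of these cells in the mitotic levels was not tested.

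Among the genes of mitotic entry, Ccna2, cyclin A2, had 122 and 113 CPM in knockout replicates 1 and 2, against 150 and 96.7 CPM in wild type replicates 1 and 2. Cdk1, the kinase that mitotic cyclins activate, had 76.0 and 77.5 CPM in the knockout and 96.0 and 64.7 CPM in the wild type. In both genes the knockout libraries nearly coincided and sat between the wild type ones, with a log2 fold change of -0.07 for Ccna2 (SE 0.33, edgeR adjusted p = 0.963) and of -0.07 for Cdk1 (SE 0.32, edgeR adjusted p = 0.962). Ccnb2, cyclin B2, was the steadiest of the class, at 71.1 and 74.7 CPM in the knockout and 72.0 and 77.7 CPM in the wild type (log2 fold change -0.04, SE 0.28). Foxm1, a transcription factor of G2/M genes chosen here after its values were seen, had 38.2 and 34.6 CPM in the knockout and 46.5 and 16.0 CPM in the wild type. Its groups overlapped, with wild type replicate 2 lowest and wild type replicate 1 highest. Cdc25c, the phosphatase that activates CDK1, was the lowest of the class at 12.8 to 21.8 CPM over the 4 libraries.

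Ccnb1, cyclin B1, also chosen after its values were seen, had 43.2 and 41.4 CPM in the knockout and 52.1 and 40.8 CPM in the wild type, and its count is uncertain. The pseudogenes Ccnb1-ps, Gm12856 and Gm8416 share stretches of 1287, 1294 and 1290 bases with its transcript at 99.2%, 98.1% and 97.3% identity, and the labels do not say how reads matching several genes were counted. The copies took 41.5% and 40.3% of the joint count in the knockout and 41.3% and 42.1% in the wild type. Together the gene and its copies had 74.0 and 69.2 CPM in the knockout and 88.8 and 70.5 CPM in the wild type, so the order of the libraries was close to that of Ccnb1 alone, with knockout replicate 2 in place of wild type replicate 2 as the lowest.

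The mitotic kinases did not share a direction. Plk1, polo-like kinase 1, which acts from mitotic entry to cytokinesis, had 67.2 and 85.7 CPM in the knockout and 67.7 and 47.8 CPM in the wild type, a log2 fold change of 0.40 (SE 0.32, edgeR adjusted p = 0.733). Knockout replicate 2 was highest and wild type replicate 2 lowest, while the replicates numbered 1 were level, and the log2 fold change was 0.18 without wild type replicate 2, 0.22 without knockout replicate 2 and 0.64 without wild type replicate 1. Aurka, the spindle pole kinase aurora A, had 57.9 and 54.6 CPM in the knockout, below 66.8 and 73.3 CPM in the wild type. Nek2, a centrosome kinase, had 36.7 and 49.3 CPM in the knockout, also below 73.5 and 53.0 CPM in the wild type (log2 fold change -0.56, SE 0.33, edgeR adjusted p = 0.664). The groups did not overlap in Aurka and Nek2, but in Nek2 the gap between knockout replicate 2 and wild type replicate 2 was smaller than the spread within either group. Ttk, the checkpoint kinase MPS1, had 19.9 and 21.6 CPM in the knockout, against 34.1 and 25.8 CPM in the wild type, with a log2 fold change of -0.53 (SE 0.33, edgeR adjusted p = 0.672).

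The chromosomal passenger complex, which corrects faulty attachments and guides cytokinesis, was the class with most genes above the wild type, though none passed. Birc5, survivin, had 93.5 and 87.4 CPM in the knockout and 72.6 and 83.8 CPM in the wild type. Incenp, the scaffold of the complex, had 61.6 and 78.0 CPM in the knockout and 59.5 and 42.6 CPM in the wild type (log2 fold change 0.45, SE 0.32, edgeR adjusted p = 0.703). Both knockout libraries lay above both wild type ones in these genes, by a narrow margin in each. Without wild type replicate 2 the log2 fold change of Incenp was 0.23, without knockout replicate 2 it was 0.27, and without wild type replicate 1 that of Birc5 was 0.073, against 0.21 with all libraries. Aurkb, the kinase of the complex, chosen here after its values were seen, had 34.7 and 37.6 CPM in the knockout and 27.8 and 28.0 CPM in the wild type, a log2 fold change of 0.37 (SE 0.29, edgeR adjusted p = 0.731). Its replicates lay closer together than its groups in both genotypes, yet the adjusted p is far from the threshold. Cdca8, borealin, ran the other way, at 54.7 and 53.9 CPM in the knockout and 61.1 and 59.0 CPM in the wild type (log2 fold change -0.14, SE 0.28). The 4 genes summed to 245 and 257 CPM in the knockout, against 221 and 213 CPM in the wild type.

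The spindle checkpoint genes overlapped between the groups throughout. Bub3, a checkpoint protein that binds kinetochores, had 58.1 and 73.4 CPM in the knockout and 60.1 and 58.9 CPM in the wild type. Mad2l1, the checkpoint protein MAD2 that holds back CDC20, had 52.1 and 58.2 CPM in the knockout and 53.6 and 40.2 CPM in the wild type. Bub1b, the checkpoint protein BUBR1, had 47.4 and 41.8 CPM in the knockout and 56.4 and 38.8 CPM in the wild type. Log2 fold changes of the 4 genes of the class, with the kinase gene Bub1, ran from -0.09 to 0.23. In Bub1b and Bub1 the knockout libraries again lay between the wild type ones.

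Among centromere and kinetochore genes, Cenpa, the histone H3 variant that marks centromeres, had 56.4 and 58.5 CPM in the knockout, below 68.3 and 64.7 CPM in the wild type (log2 fold change -0.21, SE 0.28). Cenpe, a kinetochore motor, had 46.7 and 55.0 CPM in the knockout and 66.7 and 23.6 CPM in the wild type. The knockout values were close to each other, and the wild type values spanned both. The 3 subunits of the microtubule-binding NDC80 complex among the 41 genes all had a negative log2 fold change. It was -0.16 for Ndc80 (SE 0.40), -0.23 for Spc25 (SE 0.31) and -0.74 for Nuf2, and whether they differ was not tested. Spc25 had 44.4 and 40.2 CPM in the knockout and 41.9 and 57.6 CPM in the wild type. Ndc80 ranged from 12.4 to 18.4 CPM in the knockout and from 13.6 to 20.8 CPM in the wild type. Spc24, the other subunit, which is not among the 41 genes, had 55.0 and 61.1 CPM in the knockout and 57.2 and 57.2 CPM in the wild type (log2 fold change 0.02, SE 0.28). Nuf2 had 20.3 and 26.9 CPM in the knockout, against 37.2 and 41.6 CPM in the wild type, without overlap. It had the lowest log2 fold change of the 41 genes, -0.74 (SE 0.32, 95% interval -1.49 to 0.01), with an unadjusted p of 0.0524 and an edgeR adjusted p of 0.606. Its log2 fold change stayed between -0.96 and -0.58 when any single library was left out. Cenpf, a large kinetochore protein chosen here after its values were seen, had 30.8 and 45.6 CPM in the knockout and 64.4 and 30.5 CPM in the wild type.

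Of the 5 kinesin genes 4 had a negative log2 fold change and 2 did so without overlap. Kif20a, a kinesin of the central spindle, had 67.8 and 50.8 CPM in the knockout and 118 and 64.5 CPM in the wild type (log2 fold change -0.62, SE 0.38, edgeR adjusted p = 0.67). Wild type replicate 1 alone stood high, and without it the log2 fold change was -0.16. The gene shares 1271 exonic bases with Cdc23 on the opposite strand, so its count is uncertain. Kif2c, the microtubule depolymerase MCAK, had 29.2 and 30.3 CPM in the knockout, below 44.1 and 38.5 CPM in the wild type (log2 fold change -0.47, SE 0.29, edgeR adjusted p = 0.674). Kif11, the motor that pushes spindle poles apart, had 66.4 and 62.4 CPM in the knockout and 64.4 and 31.4 CPM in the wild type. There 3 libraries were level and wild type replicate 2 was low. Kif4 and Kif23 had log2 fold changes of -0.47 and -0.04, and 832 exonic bases of Kif4 lie opposite to Pdzd11. Without wild type replicate 1 the log2 fold change of Kif4 was -0.16, and without wild type replicate 2 it was -0.75. Exons of Ccna2 lie opposite to Exosc9 over 510 bases and those of Prc1 opposite to Rccd1 over 911, and without strand such reads cannot be told apart.

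Among the 4 genes of spindle microtubule proteins, 3 had a negative log2 fold change, 2 did so without overlap, and 0 reached an unadjusted p under 0.05. Tpx2, which activates aurora A on microtubules, had 80.6 and 75.1 CPM in the knockout and 106 and 88.3 CPM in the wild type (log2 fold change -0.32, SE 0.29). Nusap1, a microtubule bundling protein, had 45.1 and 41.8 CPM in the knockout and 61.5 and 46.7 CPM in the wild type. The knockout libraries lay below the wild type ones in both genes, though not with library totals, in Nusap1 with a smaller gap to wild type replicate 2 than the wild type replicates had between them. Hmmr, a spindle and hyaluronan-binding protein, had 75.9 and 53.9 CPM in the knockout and 67.2 and 49.8 CPM in the wild type, so its groups overlapped. Prc1, which bundles the central spindle, had a log2 fold change of -0.22 (SE 0.32).

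Genes of the metaphase to anaphase step include the most abundant of the 41 per length. Cdc20, the activator of the anaphase-promoting complex, had 130 and 133 CPM in the knockout and 183 and 136 CPM in the wild type (log2 fold change -0.27, SE 0.31), which was -0.079 without wild type replicate 1 and -0.47 with wild type replicate 2 left out. Ube2c, the ubiquitin-conjugating enzyme of that complex, had 98.8 and 153 CPM in the knockout and 116 and 132 CPM in the wild type. The knockout replicates of Ube2c spanned both wild type ones, and its log2 fold change of 0.03 turned negative under no filter, limma-voom and the replicate block. Espl1, separase, the protease that cleaves cohesin, had 47.4 and 50.3 CPM in the knockout, above 42.4 and 18.8 CPM in the wild type. It had the highest log2 fold change of the 41 genes, 0.67 (SE 0.42, 95% interval -0.33 to 1.67, edgeR adjusted p = 0.675), which was 0.20 without wild type replicate 2. Pttg1, securin, the inhibitor of separase, had a log2 fold change of 0.08 (SE 0.35), and its 4 libraries ranged from 17.2 to 24.3 CPM.

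The genes of cytokinesis had the widest spread between the wild type tumours. Ect2, the exchange factor that activates RhoA at the cleavage furrow, had 52.4 and 57.5 CPM in the knockout and 77.6 and 20.8 CPM in the wild type. Anln, the furrow scaffold anillin, had 31.2 and 33.2 CPM in the knockout and 44.4 and 18.1 CPM in the wild type. In each the knockout tumours were within a few CPM of each other and inside the wild type range. Mki67, the proliferation marker Ki-67 that coats mitotic chromosomes, had 248 and 287 CPM in the knockout and 317 and 162 CPM in the wild type, a log2 fold change of 0.16 (SE 0.41, 95% interval -0.80 to 1.12, edgeR adjusted p = 0.926). Top2a, the topoisomerase that untangles sister chromatids, had 153 and 129 CPM in the knockout and 165 and 112 CPM in the wild type, a log2 fold change of 0.02 (SE 0.33) that was -0.028 with library totals and -0.016 with no filter. Wild type replicate 1 was the highest and wild type replicate 2 the lowest library for both markers.

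**Figure D3:**
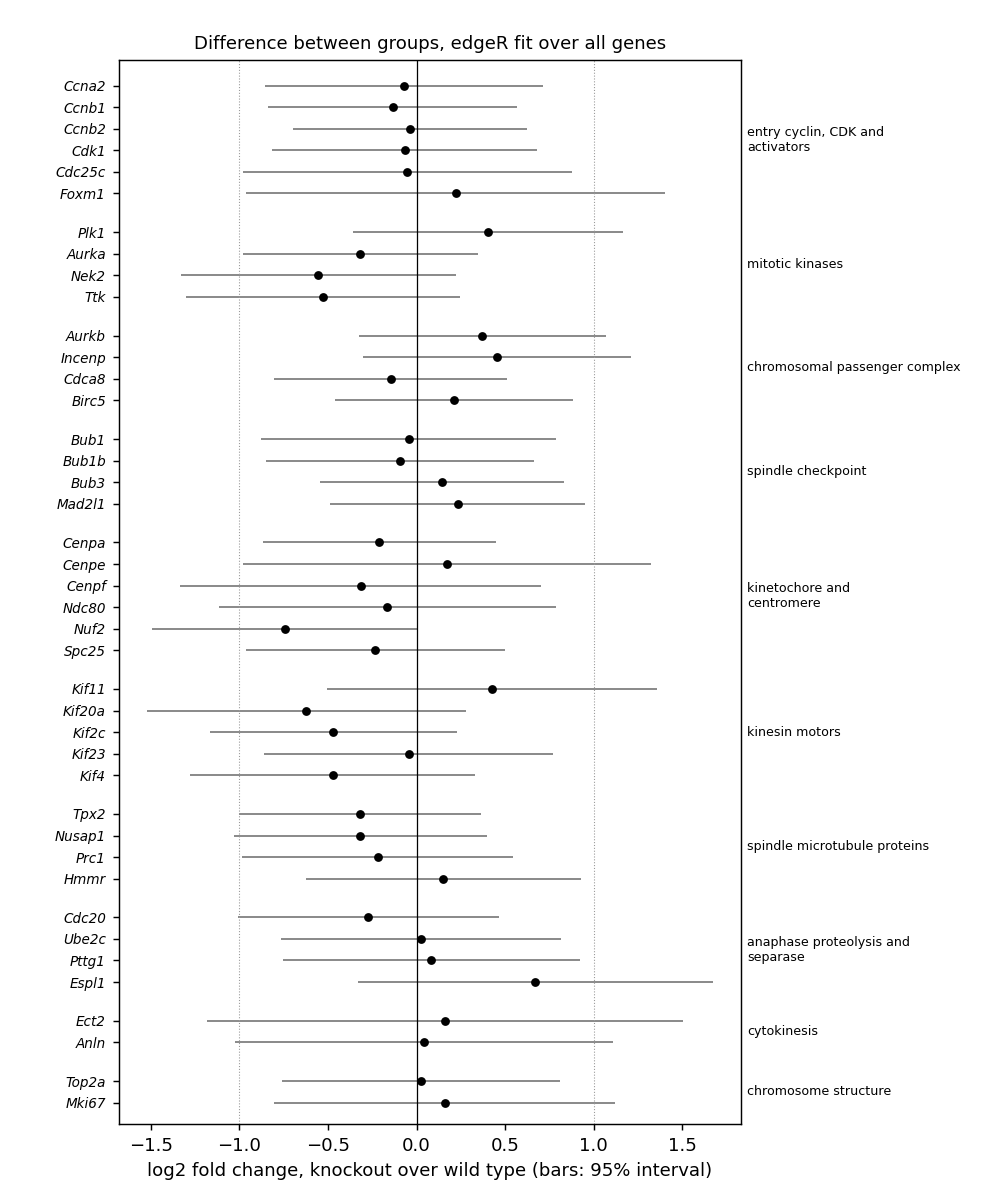
Log2 fold change of each mitotic gene, knockout over wild type, from the edgeR fit over all genes (points) with its 95% interval (bars); dotted lines mark a 2-fold change either way. The interval of every one of the 41 genes holds 0, and Nuf2 at -0.74 and Espl1 at 0.67 are the extremes.

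Compared per length, as CPM per kilobase of exonic sequence averaged over the 4 libraries, the genes spanned from 2.51 for Ndc80 to 77.8 for Cdc20. Ccnb2 at 48.3 and Ube2c at 48.0 followed Cdc20, then Plk1 at 30.5 and Ccna2 at 29.5. The order below Ube2c depends on the length used. By the deposited FPKM, which for most genes rests on another length, Cdc20, Ccnb2 and Ube2c stayed on top. Mki67 came next there at a mean of 24.9, above Plk1 at 20.8 and Ccna2 at 19.5. Per kilobase, Cdc20 ranged from 69.7 to 71.3 CPM in the knockout and from 72.6 to 97.8 CPM in the wild type. Ube2c ranged from 38.0 to 58.9 CPM per kilobase in the knockout and Ccnb2 from 46.5 to 48.8. The knockout range of Ube2c thus held that of Ccnb2, and both lay below that of Cdc20. Mki67, which led the genes by CPM, was at 25.2 per kilobase over 10061 exonic bases, beside Aurka at 24.9 and Birc5 at 24.8. At the low end stood Cdc25c at 3.46, Kif23 at 2.86, Cenpf at 2.77 and Ndc80.

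The main pattern among the mitotic genes was a difference between the wild type tumours. Wild type replicate 2 was below wild type replicate 1 in 32 of the 41 genes (78%), against 51.9% of all tested genes. Wild type replicate 1 was the highest library in 25 genes (61%), against 23.2% of all genes. In 14 of the 41 genes (34.1%) both knockout libraries lay between a higher wild type replicate 1 and a lower wild type replicate 2, against 10.4% of all genes. The knockout tumours were closer together: their absolute log2 difference had a median of 0.14 over the 41 genes, against 0.33 over all tested genes, whereas the wild type tumours differed by a median of 0.48, against 0.54 over all tested genes. The wild type difference was the wider one in 35 of the 41 genes (85.4%), against 63.5% of all genes. Levels were unlike in these comparisons. All 41 genes had a mean of at least 16.3 CPM, while 9887 of the 16310 tested genes had a mean of at least 10 CPM. The part of level in the replicate differences was not tested. The log2 ratio of wild type replicate 2 to 1 was -1.90 for Ect2, -1.54 for Foxm1, -1.50 for Cenpe, -1.29 for Anln, -1.17 for Espl1, -1.08 for Cenpf and -1.04 for Kif11. Pttg1 at 0.49 and Spc25 at 0.46 had the highest ratios, and Aurkb, Bub3 and Cdca8 had ratios of 0.01, -0.03 and -0.05. Cell type markers also differed between the wild type tumours, and several lists were higher in wild type replicate 2, where most mitotic genes were lower. Wild type replicate 2 was below wild type replicate 1 in 0 of 15 hepatocyte markers, whose median log2 ratio was 1.17. The median log2 ratio was 1.87 for neutrophil, 1.35 for cholangiocyte, 1.19 for erythroid and 0.94 for macrophage markers, while 9 of 10 T and NK cell markers were lower in wild type replicate 2. The part of these cells in the wild type difference was not tested.

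Exonic length moved with this ratio. Across the 41 genes, which span 1531 to 15433 exonic bases, the log2 ratio of wild type replicate 2 to 1 had a Spearman rho of -0.53 with length, and the ratio of knockout replicate 2 to 1 one of 0.21. These are correlations across genes that share 4 libraries, given as a description. Over the 9887 genes with a mean of at least 10 CPM the rho was -0.44 for the wild type ratio and 0.04 for the knockout ratio, so length and the wild type ratio were related in the whole library and not in the mitotic genes alone. The 14 shortest mitotic genes had a median wild type log2 ratio of -0.17, the 13 of middle length -0.57 and the 14 longest -0.58. For those 9887 genes split into 3 bins by length, with other limits, the medians were 0.38, 0.03 and -0.34, each above that of the mitotic genes at the same rank of length. The part of transcript length in the wild type difference was not tested. Wild type replicate 2 also had the lowest share of mitochondrial counts, 4.13%, against 8.69% in wild type replicate 1 and 9.80% and 16.6% in knockout replicates 1 and 2.

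**Figure D4:**
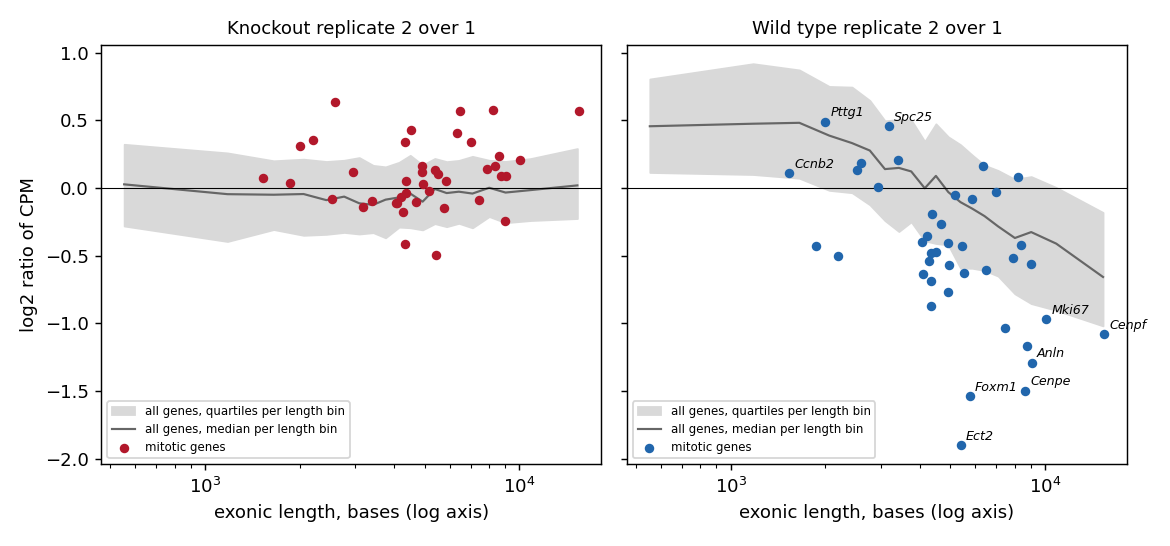
Log2 ratio of CPM between the replicates of each group against exonic length in bases (log axis), knockout on the left and wild type on the right; points are the 41 mitotic genes, the grey line and band the median and quartiles of 9887 genes in 20 bins of length. Points and grey line slope down in the wild type (rho -0.53 and -0.44) and stay near 0 in the knockout, where rho is 0.21 and 0.04.

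The direction of the comparison differed with the wild type library that was kept. Without wild type replicate 2 the median log2 fold change of the 41 genes was -0.30 and 29 were negative. Of these, Nek2, Ttk, Cenpf, Kif20a and Kif4 had an unadjusted p under 0.05, which is 12.2% of the 41 genes against 11% of all tested genes, each negative. Without wild type replicate 1 the median was 0.13 and 17 were negative. Foxm1, Cenpe, Nuf2, Kif11, Espl1, Ect2 and Anln then had an unadjusted p under 0.05, or 17.1% against 24% of all tested genes. Nuf2 was negative at -0.86 in that fit, and Ect2 at 1.36, Espl1 at 1.34, Foxm1 at 1.15, Cenpe at 1.07, Kif11 at 1.00 and Anln at 0.79 were positive. No mitotic gene passed an adjusted p of 0.05 in any of these fits, in which the lone wild type library was assumed to vary like the knockout ones, and the smallest edgeR adjusted p was 0.0579, for Ect2. Leaving out knockout replicate 1 gave a median of -0.08 and 0 mitotic genes at an unadjusted p under 0.05, against 4.49% of all tested genes. Leaving out knockout replicate 2 gave a median of -0.08 and 0 genes, against 3.07%.

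Of 129 other genes of the mitotic machinery in 5 lists, 129 were tested and 0 passed. Their log2 fold changes were positive in 61 and negative in 68, with a median of -0.03. Both knockout libraries lay below both wild type libraries in 28 (21.7%) and above in 23 (17.8%), against 20.1% and 21.9% of all tested genes. At an unadjusted edgeR p under 0.05 there were 3 lower genes and 1 higher gene, against 4.35% and 3.95% of all tested genes. DESeq2 called 0, against 0.907% of all tested genes. Among 32 other kinetochore genes 15 were positive and 17 negative. Pmf1, a subunit of the MIS12 complex that links centromere and NDC80 complex, had 59.8 and 56.3 CPM in the knockout, against 101 and 109 CPM in the wild type (log2 fold change -0.85, SE 0.28, edgeR adjusted p = 0.547). Cenpl, of the constitutive centromere network, had a log2 fold change of -0.75 (SE 0.38). Among 21 condensin and cohesin genes 11 were positive and 10 negative, with the condensin II genes Ncaph2 and Ncapd3 at -0.77 (SE 0.33) and 0.67 (SE 0.34). The anaphase-promoting complex had 5 positive and 12 negative of 17, with its subunit Anapc7 at -0.58 and its ubiquitin-conjugating enzyme Ube2s at -0.77.

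Of 32 other kinesin, spindle and cytokinesis genes 18 were positive and 14 negative. Racgap1, the partner of KIF23 in the centralspindlin complex, had 67.0 and 63.4 CPM in the knockout and 113 and 90.8 CPM in the wild type (log2 fold change -0.64, SE 0.29), and Cep55, an abscission protein, had 15.1 and 10.8 CPM in the knockout and 8.01 and 6.56 CPM in the wild type (0.83, SE 0.39). Among 27 other regulators of mitotic entry 12 were positive and 15 negative. Ccnf, cyclin F, a ubiquitin ligase subunit that targets cell cycle proteins, had 24.4 and 26.7 CPM in the knockout, against 50.3 and 50.7 CPM in the wild type. Its groups were far apart relative to their spread, with a log2 fold change of -0.98 (SE 0.29), an unadjusted p of 0.0118 and an edgeR adjusted p of 0.547. Pkmyt1, the kinase that holds CDK1 inactive, had 19.4 and 24.9 CPM in the knockout and 35.9 and 41.2 CPM in the wild type (log2 fold change -0.80, SE 0.32).

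The genes of DNA replication, which act earlier in the cell cycle, were set beside the mitotic genes. Of 45 tested, 34 had a negative log2 fold change, with a median of -0.27, and in 24 (53.3%) both knockout libraries lay below both wild type libraries, against 20.1% of all tested genes. At an unadjusted edgeR p under 0.05, 6 of the 45 were lower and 0 higher, against 4.35% and 3.95% of all tested genes. The edgeR test called 0 and DESeq2 1, against 0% and 0.907% of all tested genes. Mcm6, a subunit of the replicative helicase, had 102 and 91.0 CPM in the knockout and 222 and 243 CPM in the wild type, with an edgeR adjusted p of 0.545 and a DESeq2 adjusted p of 0.0278. Uhrf1 takes part in the copying of DNA methylation after replication. It had 35.5 and 28.0 CPM in the knockout and 66.1 and 58.9 CPM in the wild type. Between the wild type tumours the replication genes had a median log2 ratio of -0.01, against -0.47 for the mitotic genes. Whether these lists differ from each other was not tested.

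**Figure D5:**
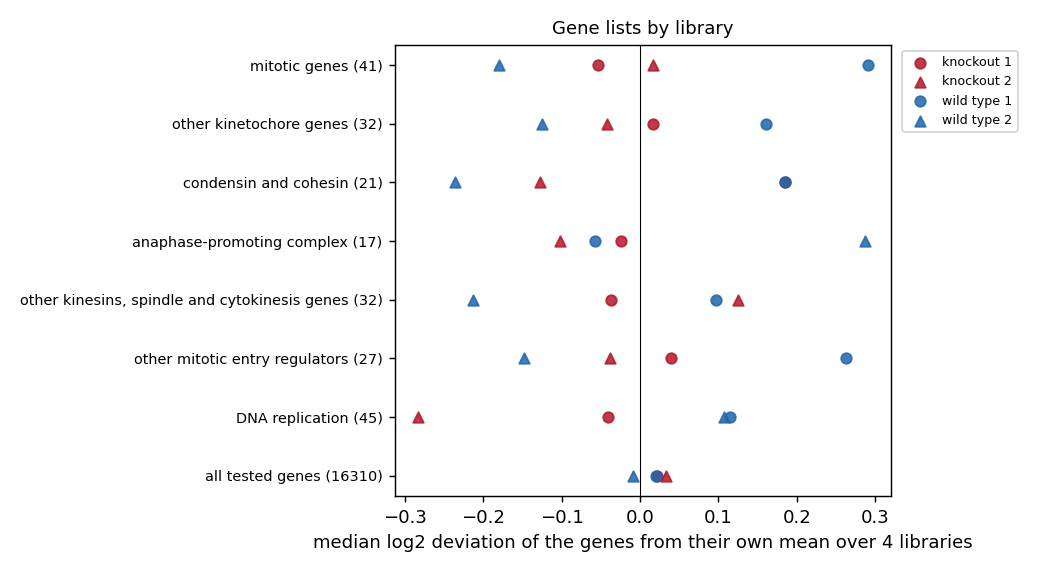
Median log2 deviation of the genes of each list from their own mean over the 4 libraries, per library (red knockout, blue wild type, circles replicate 1, triangles replicate 2); numbers in brackets are genes tested. For the 41 mitotic genes the knockout medians of -0.05 and 0.02 lie between the wild type ones of 0.29 and -0.18, and for DNA replication the knockout medians of -0.04 and -0.28 lie below the wild type ones of 0.11 and 0.11.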

How the data were processed

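Bulk tumour RNA from 4 mice was analysed, 2 knockout and 2 wild type; replicates are separate mice per the series design. RNA came from an RNeasy kit and libraries from an mRNA-seq kit, per the labels' protocols. The submitters' processing notes list build mm10 and the tools StringTie, HISAT2, edgeR and SAMtools 1.3.1, with no account of their roles. Strandedness was not stated in the labels.

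The authors deposited raw counts and FPKM per gene. The deposited FPKM equalled the count over a fixed length and the column total for 100.0% of genes, within 1%. That length lay within 1% of the exonic length of GENCODE M21 in 21.6% of genes. FPKM was therefore used only to check the order of genes per length, and levels per kilobase use the GENCODE length. Symbols came from GENCODE M21 (55227 of 55487 identifiers), whose spans equalled the deposited ones for 99.4%.

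In R 4.3.3, genes kept by filterByExpr were TMM-scaled and went into the quasi-likelihood test of edgeR 4.0.16, two-sided, knockout over wild type, with Benjamini-Hochberg adjustment over 16310 genes and a threshold of 0.05. An exact permutation test of 2 against 2 cannot go below 0.333. Log2 ratios between replicates use an offset of 0.1 CPM for all genes together and none for single genes. A floor of 3 counts is 0.163 to 0.195 CPM; floors cover counting error only. Alternatives were DESeq2 1.42.0 as a test and for size factors, library totals, no filter, a mean of 5 CPM, limma-voom (limma 3.58.1), a replicate block and leaving out each library. Look-alike transcripts were sought with blastn 2.17.0 (95% identity over 200 bases).

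The members, lists and tests were chosen with earlier results of these data known. Values in every library are given for the 3 genes of each role with the highest mean CPM and for the 5 with the smallest p, and for others where stated; in each further list the 2 genes with the smallest p are named.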

Additional observations from a re-analysis of the deposited data

How the results depend on the processing

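None of the 41 mitotic genes passed under any alternative run. The number of all tested genes called, 0 in the main edgeR fit, was 1 with library totals, 148 with DESeq2's test, 1 with limma-voom and 4 with the replicate block, and ran from 0 to 409 when 1 library was left out (409 with wild type replicate 1 left out, 68 with wild type replicate 2 left out). The median log2 fold change of the mitotic genes, -0.05, ran from -0.12 (library totals) to -0.03 over the alternatives with all 4 libraries, and from -0.30 to 0.13 when 1 library was left out, with the lowest value without wild type replicate 2. In 22 of the 41 genes the sign differed in at least 1 fit without a library, with log2 fold changes over those fits of Anln -0.46 to 0.79, Bub1 -0.35 to 0.30, Bub1b -0.34 to 0.16, Bub3 -0.032 to 0.27, Ccna2 -0.35 to 0.24, Ccnb1 -0.30 to 0.015, Ccnb2 -0.13 to 0.018, Cdc25c -0.39 to 0.35, Cdk1 -0.32 to 0.21, Cenpe -0.39 to 1.07, Cenpf -0.76 to 0.29, Ect2 -0.50 to 1.36, Foxm1 -0.35 to 1.15, Hmmr -0.15 to 0.38, Kif23 -0.28 to 0.20, Mki67 -0.25 to 0.68, Ndc80 -0.47 to 0.13, Prc1 -0.53 to 0.0085, Pttg1 -0.18 to 0.35, Spc25 -0.48 to 0.012, Top2a -0.23 to 0.29, Ube2c -0.32 to 0.28. Tfrc ran from -0.79 to 0.16. Among the genes that kept their sign, the value moved by over 1.5 times without 1 library for Kif11 (3.8e-05 to 1.00), Mad2l1 (0.039 to 0.42), Birc5 (0.073 to 0.32), Nusap1 (-0.50 to -0.14), Nek2 (-0.78 to -0.34) and Ttk (-0.72 to -0.35), and for Espl1, Kif20a, Kif4, Cdc20, Plk1 and Incenp, as given with those genes. Where 1 library of a group was left, its spread was taken from the pair in the other group, and the cause of these sign changes was not tested. With all 4 libraries it differed only for Ube2c (-0.021 with no filter, -0.0061 with limma-voom and -0.0054 with the replicate block), Anln (-0.049 with library totals) and Top2a (-0.028 with library totals and -0.016 with no filter). The labels do not say that replicate numbers pair the mice. Deviations of same-numbered libraries correlated at 0.12 over all tested genes, and the replicate block called 0 mitotic genes, with a median of -0.04. With 2 libraries a group the 95% intervals reached a median of 0.78 on the log2 scale to either side of the estimate over the mitotic genes.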
